A study of Mus musculus with 9 samples.

Results

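Ptf1a, Rbpjl, Nr5a2, Bhlha15 and Gata4 encode transcription factors of the acinar cells of the exocrine pancreas. Their 5 rows were taken by gene symbol from the 23235 symbols of each expression table and were found in all 9 libraries. PTF1A is a basic helix-loop-helix protein that founds the pancreas and then drives the acinar lineage. It works in the trimeric complex PTF1 with an E protein (from Tcf3, Tcf4 or Tcf12) and an RBPJ-type protein, which is RBPJ in early progenitors and RBPJL in acinar cells. The complex binds an E box and a nearby TC box in the promoters of digestive enzyme genes and of Rbpjl itself. NR5A2 is a nuclear receptor that works with PTF1 at secretory genes, BHLHA15 (also called MIST1) scales up the secretory apparatus of the maturing acinar cell, and GATA4 is a zinc finger factor of the early pancreas that later persists in acinar cells. Cpa1 encodes carboxypeptidase A1, an abundant product of acinar cells and their precursors, and served as the measure of acinar RNA in a library.

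Whole pancreas was dissected from e15.5 mouse embryos, on a mixed C57BL/6 and 129Sv background, and its RNA was sequenced in 9 libraries. There were 3 libraries from wild-type embryos, 3 from embryos labelled Blinc1+/- and 3 from embryos labelled Blinc1-/-. The gene Blinc1 makes a long noncoding RNA and lies beside Nkx2-2, an islet factor gene. The labels tell neither how the allele was made nor whether each library is another embryo or litter, so the p-values speak of the spread among these 9 libraries, which may be technical. Values are FPKM (fragments scaled to transcript length and to sequencing depth) as deposited, and group values are mean ± SD over 3 libraries. The depth implied by the deposited confidence bounds was 19532323 to 25436805 fragments per library. Blinc1 itself was not analysed here, so the genotype labels could not be checked at the targeted gene. In each mutant group the library labelled replicate 1 stood apart. Nkx2-2 was at 24.9 FPKM in knockout replicate 1 against 6.08 and 5.48 FPKM in the other knockouts. It was at 6.37 FPKM in heterozygote replicate 1 against 19.0 and 13.4 FPKM in the other heterozygotes. In wild types it was at 15.2, 21.7 and 25.5 FPKM. Knockout replicate 1 thus lay in the wild-type range, and heterozygote replicate 1 lay near the other knockouts. Results for the factors are therefore also given without these 2 libraries, as are counts for most gene lists in knockouts against wild types. Judged by Xist, all 3 knockout libraries came from females, as did wild-type replicate 3 and heterozygote replicate 3, and the other 4 libraries came from males.

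The promoter of Rbpjl carries the kind of site through which PTF1 is known to act, and it is shown here because it ties one factor to another and to Cpa1. Windows from 250 bases before to 50 bases after the start site came from RefSeq (mouse build GRCm38.p6), and 4 of the 5 factors and Cpa1 had one. The window sequences were searched on both strands for an E box, CANNTG, followed by a TC box, TTCCCA, with 4 to 6 or 14 to 16 bases between them. The motif and its spacings were chosen with these sequences in view. The stretch of the Rbpjl promoter from base -120 to base -1 before the start site is at chr2:164403074-164403193, plus strand. That of Cpa1 from base -60 to base 8 is at chr6:30639158-30639225, plus strand. Capitals mark the TC box, which reads TGGGAA on this strand, and the E boxes paired with it; any other CANNTG is in lower case.
Rbpjl: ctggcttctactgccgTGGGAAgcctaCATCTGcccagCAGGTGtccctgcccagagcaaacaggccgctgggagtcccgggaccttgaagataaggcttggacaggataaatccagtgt
Cpa1: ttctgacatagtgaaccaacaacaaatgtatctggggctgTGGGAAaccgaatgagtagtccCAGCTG
In Rbpjl a single TC box is paired with 2 E boxes, 1 at a spacing of 5 bases and 1 at a spacing of 16 bases. In Cpa1 the pair has a spacing of 16 bases.

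The same pair of boxes was found in the windows of 5 of the 24 acinar product genes that had one, against 0.966% of all 27025 genes and 0.813% of all 32851 windows. These 5 are Cpa1, Cel (carboxyl ester lipase), Ctrb1 (a chymotrypsinogen), Reg1 (a secreted lectin) and 2210010C04Rik (a trypsinogen-like gene). As the motif and its spacings were chosen with such sequences in view, that of Cpa1 included, the share is not independent of the choice. It was not tested. The matches are written below with the E box first, so that the arrangement can be compared, and capitals mark both boxes.
Rbpjl, near: CAGATGtaggcTTCCCA
Rbpjl, far: CACCTGctgggcagatgtaggcTTCCCA
Cpa1: CAGCTGggactactcattcggtTTCCCA
Cel: CAGGTGtgggatggtccattttTTCCCA
2210010C04Rik: CAGGTGagtttgtttcttccaTTCCCA
Ctrb1: CAGCTGtccttTTCCCA
Reg1: CATCTGtgactgTTCCCA
The search fixed the boxes and left the bases between them free. The windows of Ptf1a, Nr5a2 and Bhlha15 held no such pair, which says only that these letters are not in these windows. Single boxes are common: CANNTG was in 72.3% of all windows and TTCCCA in 25.6%. A match is a description of sequence and was not tested for binding.

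All 5 factors were well measured in every library, with at least 1951 implied fragments for each. FPKM are scaled to transcript length, so levels can be set side by side. Rbpjl was at 117 to 256 FPKM over the 9 libraries, Bhlha15 at 123 to 162, Ptf1a at 67.6 to 118, Gata4 at 45.4 to 69.4 and Nr5a2 at 28.7 to 44.6 FPKM. The order Rbpjl, Bhlha15, Ptf1a, Gata4, Nr5a2 was the same in 7 libraries. In wild-type replicate 2 and knockout replicate 1 Bhlha15 lay above Rbpjl, so these 2 neighbours were not separated beyond their spread, with a ratio of Rbpjl to Bhlha15 between 0.922 and 1.73. The other neighbours kept their order in all 9 libraries. Bhlha15 was 1.38 to 1.82 times Ptf1a, Ptf1a was 1.29 to 1.70 times Gata4, and Gata4 was 1.51 to 1.66 times Nr5a2. The ratio of Gata4 to Nr5a2 varied least, and that of Rbpjl to Bhlha15 most. The factors also differed in how far they ranged: the highest library was 2.18 times the lowest at Rbpjl, 1.74 times at Ptf1a, 1.55 times at Nr5a2, 1.53 times at Gata4 and 1.32 times at Bhlha15. Cpa1 was at 7457 to 11632 FPKM, 1.56 times from lowest to highest.

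**Figure D1:**
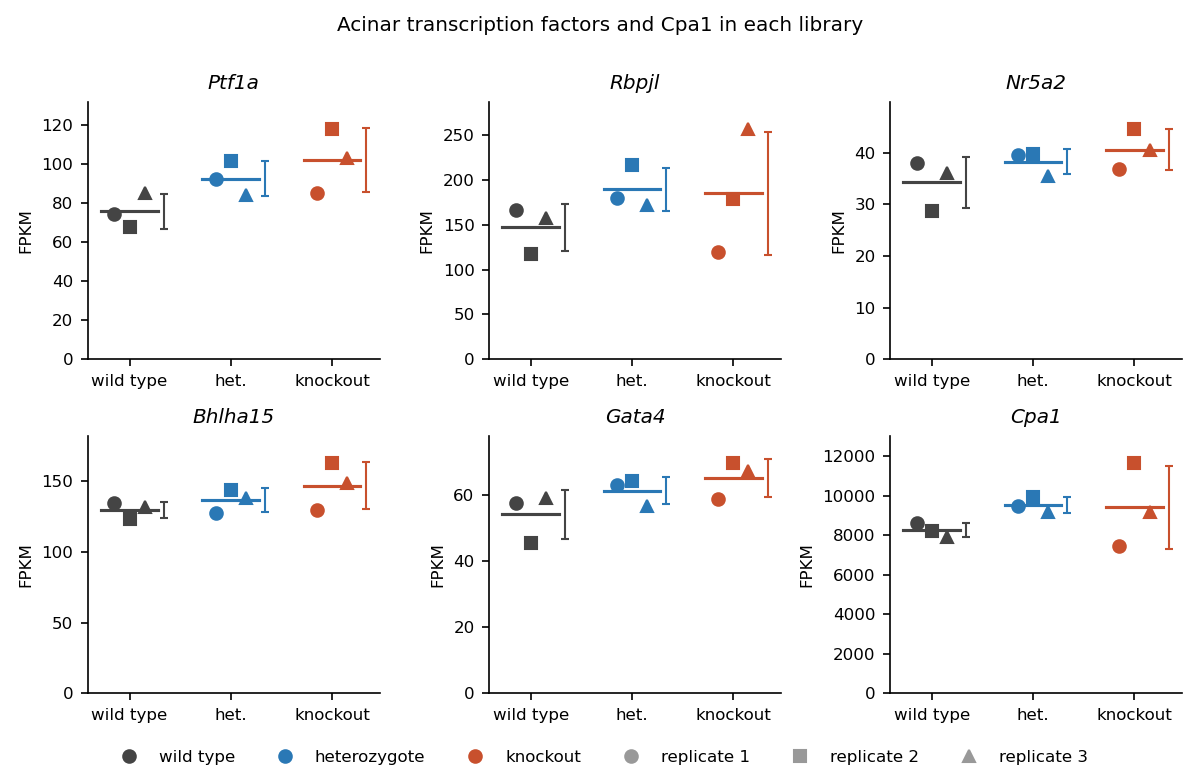
FPKM of the 5 factors and of Cpa1 in each of the 9 libraries, by genotype. Points are libraries (circle, square and triangle for replicates 1, 2 and 3), horizontal lines are group means and bars are 1 SD (n = 3); at each factor wild-type replicate 2 is the lowest point, and 2 of the 3 knockout points lie above the highest wild-type point.

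Knockout against wild type asks whether loss of Blinc1 changes these genes. The mean of each factor was higher in the knockouts, by 1.35-fold at Ptf1a, 1.26-fold at Rbpjl, 1.20-fold at Gata4, 1.19-fold at Nr5a2 and 1.13-fold at Bhlha15, and none passed the test. By limma on log2(FPKM + 1), 0 of 5 factors had an adjusted p under 0.05, as did 0% of the 13306 genes tested. At an unadjusted p under 0.05 there were 3 of 5 (Ptf1a, Gata4 and Nr5a2), against 8.39% of all genes. All 5 log2 differences were above 0, against 41.5% of all genes. The median difference of the 5 was 0.27 on the log2 scale, and that of all genes -0.03.

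Ptf1a had the largest difference of the 5. In replicates 1, 2 and 3, in this order here and below, the wild types had 74.4, 67.6 and 85.3 FPKM and the knockouts 85.2, 118 and 103 FPKM. Knockout replicates 2 and 3 lay above all wild types, and knockout replicate 1 lay at the level of wild-type replicate 3. The means were 75.7 ± 8.92 and 102 ± 16.3 (SD, n = 3). The log2 difference was 0.42 (SE 0.13, 95% interval 0.14 to 0.70), with an unadjusted p of 0.00826 and an adjusted p of 0.58 by limma.

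Rbpjl, the acinar partner of PTF1A, was the most variable of the factors in knockouts. It was at 167, 117 and 158 FPKM in wild types and at 119, 179 and 256 FPKM in knockouts. Its knockout values straddled the wild types: replicate 1 was close to the lowest wild type and replicate 3 was the highest of all 9 libraries. The means were 147 ± 26.2 and 185 ± 68.8, and the log2 difference of 0.27 had a 95% interval from -0.27 to 0.82 (limma adjusted p = 0.70). It was 0.01 without knockout replicate 3 and 0.55 without knockout replicate 1.

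Rbpjl overlaps another gene. On mm9, the build of the files, Rbpjl spans chromosome 2, 164228694 to 164240948, on the plus strand. Matn4, which encodes the matrix protein matrilin 4, spans 164215129 to 164230660 on the minus strand, so that the 2 loci share 1967 bases. Annotated exons of both (GENCODE, same assembly) share 149 bases, out of 5732 exonic bases of Rbpjl and 5175 of Matn4. Whether the authors' counting used strand is not given in the sources used here, and without strand the reads of 2 such genes cannot be told apart where they overlap. Matn4 was the gene whose pattern over the 9 libraries was most like that of Rbpjl (r = 0.95). Matn4 was at 32.7, 25.5 and 33.1 FPKM in wild types, 37.4, 36.6 and 32.9 in heterozygotes, and 25.7, 30.9 and 45.0 FPKM in knockouts. It was thus highest in the library where Rbpjl was highest and lowest in wild-type replicate 2 and knockout replicate 1, as Rbpjl was. Whether the overlap enters either level was not tested. No other locus of the tables overlapped the other 4 factors.

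Gata4 and Nr5a2 varied together across libraries. Gata4 was at 57.6, 45.4 and 59.0 FPKM in wild types and at 58.6, 69.4 and 67.2 FPKM in knockouts (54.0 ± 7.47 and 65.1 ± 5.73; log2 difference 0.27, SE 0.11, limma adjusted p = 0.58). Nr5a2 was at 38.1, 28.7 and 36.0 FPKM in wild types and at 36.8, 44.6 and 40.5 FPKM in knockouts (34.3 ± 4.93 and 40.6 ± 3.88; log2 difference 0.25, SE 0.11, limma adjusted p = 0.58). In both genes wild-type replicate 2 was well below the other wild types, and knockout replicate 1 lay within the wild-type range. Without wild-type replicate 2 the differences were 0.15 at Gata4 and 0.13 at Nr5a2.

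Bhlha15 differed least. It was at 134, 123 and 132 FPKM in wild types and at 129, 162 and 148 FPKM in knockouts, with means of 130 ± 5.68 and 147 ± 16.5 (log2 difference 0.17, SE 0.08, limma adjusted p = 0.58). Its wild-type spread was the narrowest of the 5, with a coefficient of variation of 4.38% against 11.3% in knockouts. Without knockout replicate 2 the difference was 0.095. Knockout replicate 1 again lay inside the wild-type range.

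The split within the knockouts was the same at all 5 genes. Knockout replicates 2 and 3 were above the highest wild type at each factor and knockout replicate 1 was not, so every knockout was above every wild type at 0 of 5 factors, against 4.55% of all genes. Knockout replicate 2 was the highest of the 9 libraries at 4 of 5 factors (10.4% of all genes), and wild-type replicate 2 was the lowest at 5 of 5 (17.5% of all genes). With both of these replicate 1 libraries of the mutants left out, the log2 difference was 0.54 at Ptf1a (limma adjusted p = 0.099), 0.55 at Rbpjl (0.18), 0.34 at Gata4 (0.16), 0.31 at Nr5a2 (0.20) and 0.26 at Bhlha15 (0.11). All 5 differences were then above 0 (38.5% of all genes), all 5 had an unadjusted p under 0.05, against 19.8% of all genes, and 0 of 5 passed after adjustment, against 0.0301% of all genes. At all 5, both remaining knockouts were above every wild type, as at 12% of all genes. Cpa1 was split in the same way, with knockout replicate 1 its lowest library. Its mean was 1.14-fold higher in knockouts with all libraries kept. Without the same replicate 1 libraries its log2 difference was 0.33 (limma adjusted p = 0.21), and both remaining knockouts were above every wild type. The split was thus not particular to the factors. With all other libraries kept, the unadjusted count was 1 (Ptf1a) without wild-type replicate 2, without knockout replicate 2 and without knockout replicate 3, where the shares of all genes were 3.13%, 3.0% and 4.53%. It was 5 without knockout replicate 1 (19.8% of all genes).

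The knockouts were all female, and only 1 wild type was. Against the female wild type, Ptf1a was at 85.3 FPKM there and at 85.2 FPKM or more in knockouts, 2 of which were higher. The same 2 of 3 held for Rbpjl, Bhlha15 and Gata4, and 3 of 3 for Nr5a2, at 36.0 FPKM in the female wild type and 36.8 FPKM or more in knockouts. With sex as a covariate the log2 difference of Ptf1a was 0.40 (limma adjusted p = 0.87), and it alone had an unadjusted p under 0.05, as had 4.19% of all genes.

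**Figure D2:**
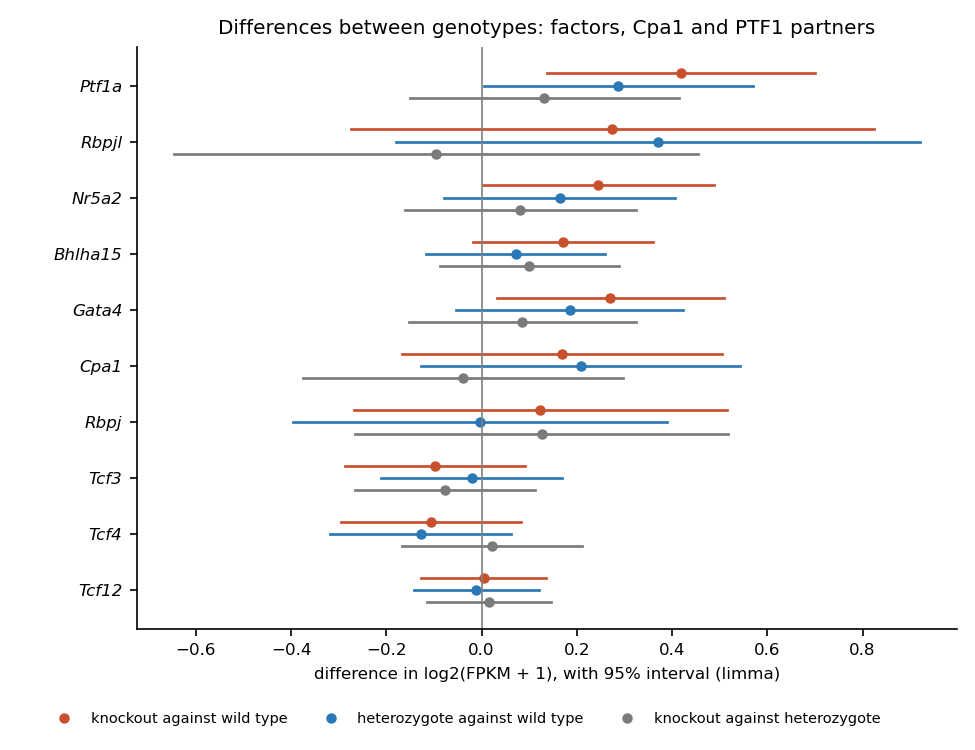
Differences in log2(FPKM + 1) between genotypes for the 5 factors, Cpa1 and the 4 partner genes of PTF1, with 95% intervals from limma. For knockout against wild type the intervals of Ptf1a, Gata4 and Nr5a2 lie above 0 before adjustment, and those of the partners Rbpj, Tcf3, Tcf4 and Tcf12 include 0.

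Heterozygotes against wild type asks whether loss of 1 allele changes the factors. All 5 means were higher in heterozygotes (42.9% of all genes were), and again none passed: 0 of 5 after adjustment, as 0% of all genes, and 1 of 5 (Ptf1a) at an unadjusted p under 0.05, against 3.92% of all genes. Ptf1a was at 92.2, 101 and 83.9 FPKM in heterozygotes (92.5 ± 8.79; log2 difference 0.29, SE 0.13, limma adjusted p = 0.94). One of these values lay below the highest wild type. Rbpjl was at 180, 217 and 172 FPKM (189 ± 24.2; log2 difference 0.37, SE 0.24, limma adjusted p = 0.94), and was the only factor with every heterozygote above every wild type, which held for 3.54% of all genes. The remaining factors differed by 0.18 (Gata4, 61.2 ± 4.14), 0.16 (Nr5a2, 38.3 ± 2.35) and 0.07 (Bhlha15, 136 ± 8.42). Without wild-type replicate 2 the difference was 0.22 at Rbpjl, 0.067 at Gata4 and 0.045 at Nr5a2, and at Bhlha15 it was 0.032 without heterozygote replicate 2. At Gata4 and Nr5a2 heterozygote replicate 3 was the lowest of its group, at 56.5 and 35.6 FPKM, while at Bhlha15 it was heterozygote replicate 1, at 127 FPKM. Cpa1 was higher too, at 9521 ± 399 against 8243 ± 353 FPKM, with all heterozygotes above all wild types (log2 difference 0.21, SE 0.15, limma adjusted p = 0.94). Without the same 2 libraries, 5 of 5 factors were higher in heterozygotes (38.2% of all genes), both heterozygotes were above every wild type at Rbpjl and Bhlha15 (6.19%), 1 of 5 (Ptf1a) had an unadjusted p under 0.05 (4.84%) and 0 of 5 passed (0.0376%). The 2 comparisons with wild type share the wild-type libraries, so wild-type replicate 2 lowers the wild-type mean in both.

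Knockouts against heterozygotes asks whether loss of the remaining allele adds a change. The log2 differences were 0.13 at Ptf1a (95% interval -0.15 to 0.41), 0.10 at Bhlha15, 0.09 at Gata4, 0.08 at Nr5a2 and -0.10 at Rbpjl (-0.65 to 0.45). By limma 0 of 5 passed, as 0% of all genes, and 0 of 5 had an unadjusted p under 0.05, against 2.22% of all genes. The difference was above 0 at 4 of 5 (44.7% of all genes), and every knockout was above every heterozygote at 0 of 5 (3.48%). Without knockout replicate 2 the difference was 0.023 at Ptf1a, 0.024 at Bhlha15 and 0.014 at Nr5a2, and at Gata4 it was 0.030 without heterozygote replicate 3. These intervals do not show that the factors were equal in both groups. Without knockout replicate 1 and heterozygote replicate 1, the difference was 0.25 at Ptf1a (adjusted p = 0.74) and 0.15 at Rbpjl, whose sign turned. All 5 were then above 0 (43.2% of all genes), both knockouts lay above both heterozygotes at 4 of 5, all but Rbpjl (16.1%), and 0 of 5 had an unadjusted p under 0.05 (6.48%) or passed (0.0376%).

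The factors were then set against Cpa1 in the same library, on the log2(FPKM + 1) scale. Cpa1 was at 8604, 8226 and 7898 FPKM in wild types, 9462, 9947 and 9155 in heterozygotes, and 7457, 11632 and 9157 FPKM in knockouts. The correlation with Cpa1 was above 0 at each factor, and none passed after adjustment over the 5 relations. Bhlha15 had r = 0.79 (exact permutation p = 0.0111, adjusted p = 0.0554; rho = 0.63, exact permutation p = 0.0760, adjusted p = 0.0760). Ptf1a had r = 0.74 (exact permutation p = 0.0221, adjusted p = 0.0554; rho = 0.70, exact permutation p = 0.0432, adjusted p = 0.0629). For Nr5a2, Gata4 and Rbpjl r was 0.66, 0.61 and 0.59, with exact permutation p of 0.0592, 0.0852 and 0.0885, each with an adjusted p of 0.0885. Their rho was 0.75, 0.68 and 0.80, with exact permutation p of 0.0255, 0.0503 and 0.0138 and an adjusted p of 0.0629 for each. At Rbpjl rho was larger than r, and this difference was not tested.

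Of the 13305 other genes, the median r with Cpa1 was -0.23, and the factors stood above 94.1% (Rbpjl), 94.7% (Gata4), 96.3% (Nr5a2), 98.2% (Ptf1a) and 99.2% (Bhlha15) of them, as a description. Knockout replicates 1 and 2 were the lowest and highest libraries at Cpa1. Without both, r was 0.69 at Ptf1a, 0.68 at Rbpjl, 0.62 at Nr5a2, 0.60 at Gata4 and 0.54 at Bhlha15 (n = 7, exact permutation p from 0.0853 to 0.214). Single libraries departed from the trend. In knockout replicate 2, with the highest Cpa1, Rbpjl was at 179 FPKM, below the 256 FPKM of knockout replicate 3 and the 217 FPKM of heterozygote replicate 2. In wild-type replicate 2 all 5 factors were lower than in knockout replicate 1 and wild-type replicate 3, although Cpa1 was higher there, at 8226 FPKM against 7457 and 7898 FPKM.

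**Figure D3:**
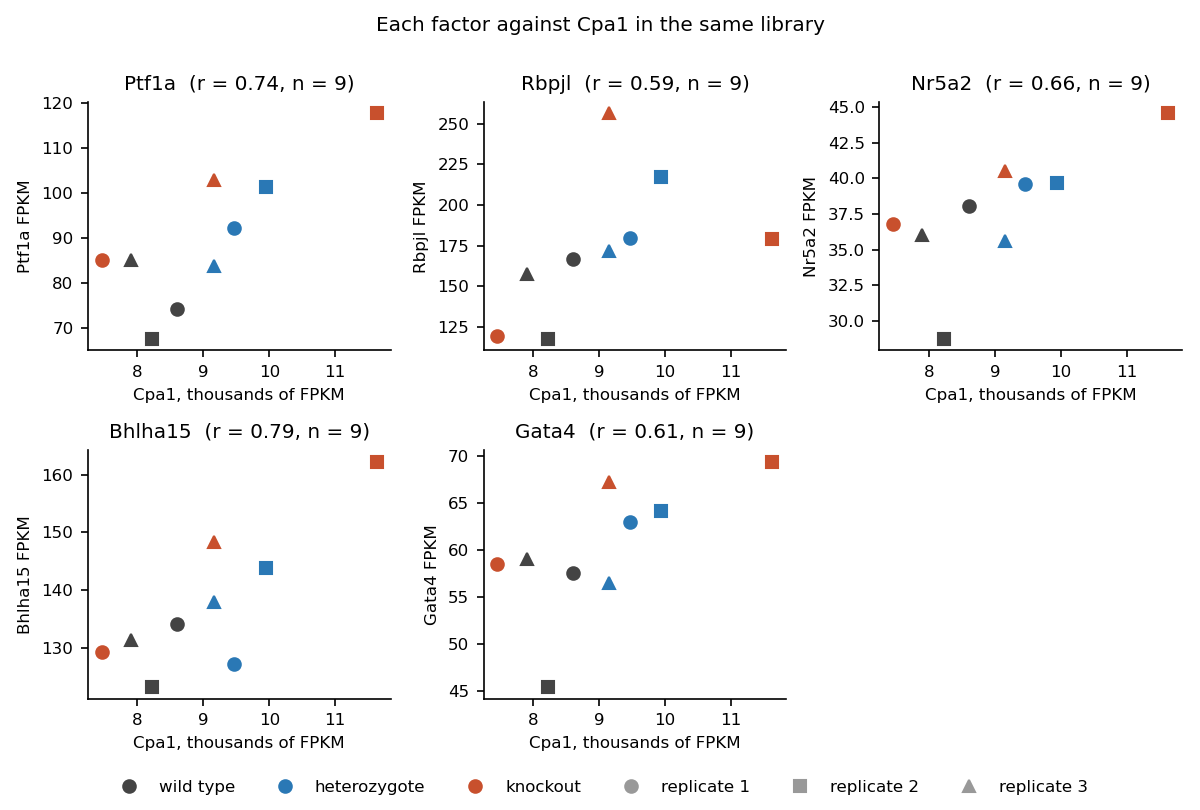
FPKM of each factor against Cpa1 (in units of 1000 FPKM) in the 9 libraries, with colour for genotype and shape for replicate number; r is Pearson's r on log2(FPKM + 1). The knockout with the highest Cpa1, at 11632 FPKM, is also the highest point for every factor but Rbpjl.

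Each factor was also expressed per Cpa1 of the same library. Ptf1a was at 8.64, 8.22 and 10.8 FPKM per 1000 FPKM of Cpa1 in wild types, 9.75, 10.2 and 9.16 in heterozygotes, and 11.4, 10.1 and 11.3 in knockouts. Only wild-type replicate 3 of the wild types reached the range of the knockouts. The knockout minus wild-type difference in the log2 ratio was 0.25 at Ptf1a (pooled SD 0.16, exact permutation p = 0.2). The same difference was 0.11 at Rbpjl (exact permutation p = 0.8), 0.11 at Gata4 (p = 0.6), 0.08 at Nr5a2 (p = 0.7) and 0.00 at Bhlha15 (p = 1). The signs of these 4 depended on single libraries: the difference was -0.17 at Rbpjl without knockout replicate 3, -0.039 at Nr5a2 and -0.013 at Gata4 without wild-type replicate 2, and -0.066 at Bhlha15 without knockout replicate 1. With all libraries, each difference but that of Ptf1a is smaller than the pooled SD of its gene. With 3 libraries a group, 0.1 is the smallest p that this two-sided test allows. For heterozygotes against wild type the differences were 0.16 at Rbpjl (exact permutation p = 0.6), 0.08 at Ptf1a (p = 0.5), -0.02 at Gata4 (p = 0.8), -0.04 at Nr5a2 (p = 0.9) and -0.14 at Bhlha15 (p = 0.2). For knockouts against heterozygotes they ran from -0.06 at Rbpjl to 0.17 at Ptf1a, with exact permutation p of 0.2 or more. With Cpa1 as a covariate in limma, the difference of Ptf1a between knockout and wild type was 0.30 (adjusted p = 0.95).

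**Figure D4:**
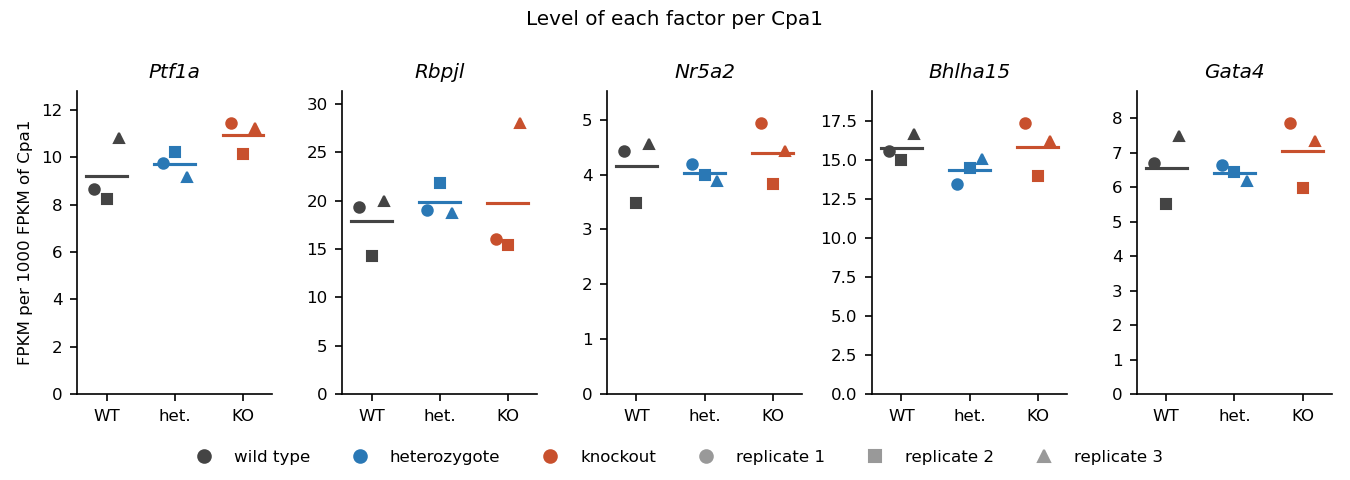
FPKM of each factor per 1000 FPKM of Cpa1 in each library, by genotype, with group means as lines. Knockout replicate 1, lowest at Cpa1, is the highest knockout for every factor but Rbpjl, where knockout replicate 3 is at 28.0.

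Among themselves the factors were most alike at Gata4 and Nr5a2. Over 9 libraries their r was 0.98 (exact permutation p = 8.27e-05, adjusted p = 0.000565 over the 10 pairs; rho = 0.93, exact permutation p = 0.00075, adjusted p = 0.00375). It was 0.89 without the 2 libraries farthest from the median of Nr5a2. Ptf1a and Gata4 had r = 0.92 (exact permutation p = 0.000113, adjusted p = 0.000565; rho = 0.98, exact permutation p = 4.96e-05, adjusted p = 0.000496) and 0.90 without the 2 libraries farthest at Ptf1a. Ptf1a had r = 0.88 with Nr5a2 and 0.84 with Bhlha15, and 0.67 and 0.58 without the same 2 libraries, wild-type replicate 2 and knockout replicate 2. Rbpjl was the least alike, with r from 0.65 to 0.74 with the others. All of these share the library and its scaling.

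The genes most like each factor over the 9 libraries, of the 13306 tested, are given as a description. For Ptf1a they were Fdx1 (the electron carrier ferredoxin, r = 0.97), Lin37 (a subunit of the DREAM cell cycle complex, 0.97) and Pdia3 (a protein disulfide isomerase of the endoplasmic reticulum, 0.96). For Nr5a2 they were Ebag9 (0.98), the transcription factor gene Arid3a (0.98) and Gata4 (0.98). For Gata4 they were Atp5a1 (a subunit of the mitochondrial ATP synthase, 0.98), Nr5a2 (0.98) and Ttc39a (0.97). Bhlha15 was most like Aldh6a1 (a mitochondrial dehydrogenase, 0.96), Sep15 (a selenoprotein of the endoplasmic reticulum, 0.96) and the phosphatase gene Dusp16 (0.95). After Matn4, Rbpjl was most like Ggnbp2 (0.95) and Dut (dUTPase, 0.94). Ranked by r with Ptf1a, Gata4 came 30th of all genes, Nr5a2 144th, Bhlha15 241st and Rbpjl 1003rd.

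Markers of mesenchyme were low in libraries where Ptf1a was high. In bulk tissue fewer cells of a type and less RNA per cell cannot be told apart. The summed level of 14 mesenchyme and mesothelium genes, led by the collagen gene Col3a1, was 1877 to 2540 FPKM in wild types, 1690 to 2003 in heterozygotes and 1491 to 2152 FPKM in knockouts. The library with the highest sum, wild-type replicate 2, had the lowest level of each of the 5 factors, and the library with the lowest sum, knockout replicate 2, had the highest level of 4. Against this sum Ptf1a had r = -0.97 (exact permutation p = 8.54e-05, adjusted p = 0.00384 over 45 relations of 5 factors with 9 marker lists; rho = -0.97, exact permutation p = 0.000165, adjusted p = 0.00744). It was -0.91 without the 2 farthest libraries and -0.98 after centring on genotype means. Gata4 had r = -0.91 (adjusted p = 0.00537, exact permutation), Bhlha15 -0.88 (adjusted p = 0.0134), Nr5a2 -0.86 (adjusted p = 0.0202) and Rbpjl -0.75 (adjusted p = 0.0788). In the same order rho was -0.93, -0.78, -0.80 and -0.75, with adjusted p of 0.0112, 0.0861, 0.0778 and 0.0956 (exact permutation). By rank only Ptf1a and Gata4 thus passed. Without the 2 farthest libraries r was -0.82, -0.73, -0.55 and -0.81 in this order. Cpa1 itself had r = -0.74 with this sum. All 14 genes of the list had a lower log2 mean in knockouts than in wild types, with a median difference of -0.36, and 0 passed. Without knockout replicate 1 and heterozygote replicate 1 all 14 were lower, with a median of -0.52. Of these 14 genes, 11 then had an unadjusted limma p under 0.05 (19.8% of all genes) and 0 passed (0.0301%). Their part in the differences of the factors was not tested.

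**Figure D5:**
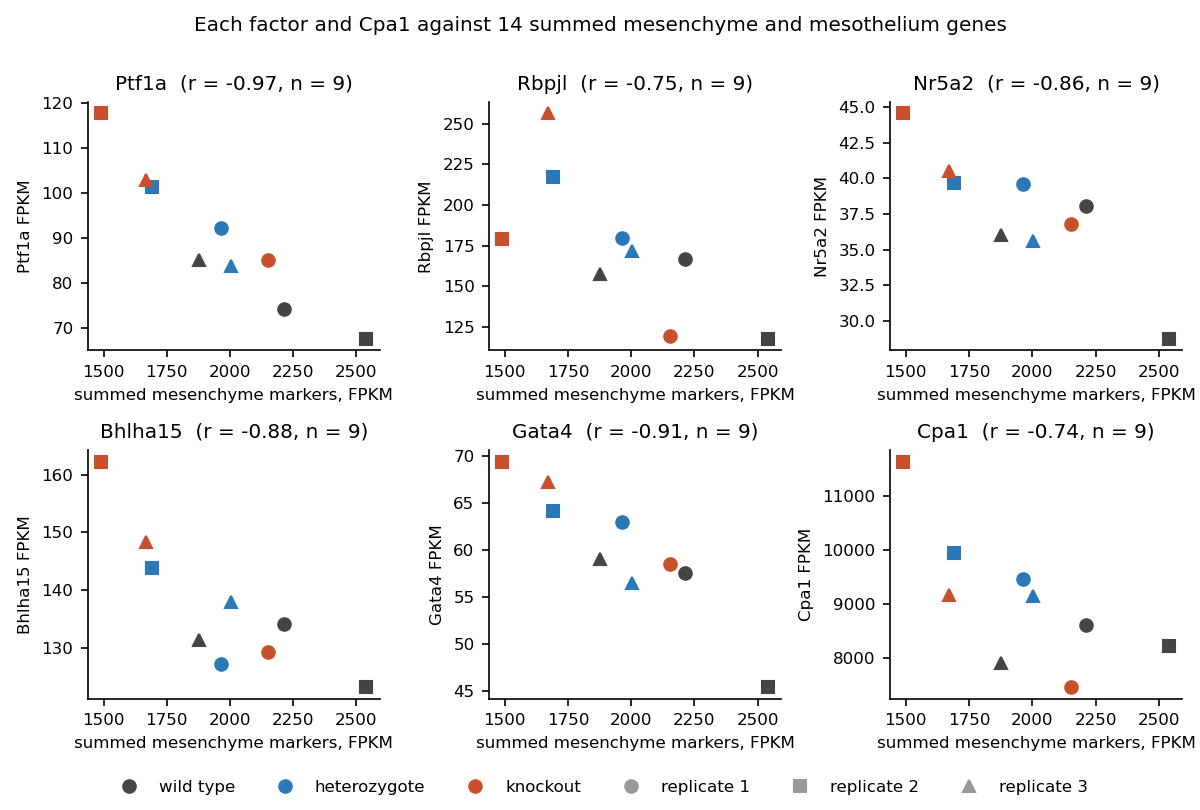
FPKM of each factor and of Cpa1 against the summed FPKM of 14 mesenchyme and mesothelium genes in the 9 libraries; r is Pearson's r on log2(FPKM + 1). Ptf1a is at 118 FPKM at the lowest sum, 1491, and at 67.6 FPKM at the highest, 2540.

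The endothelial sum (8 genes, led by Cdh5) was 197 to 239 FPKM in wild types and 160 to 206 FPKM in knockouts, and had r = -0.94 with Ptf1a (adjusted p = 0.00391, exact permutation). The immune sum (8 genes, led by C1qa) was 302 to 342 and 236 to 272 FPKM, with r = -0.83 (adjusted p = 0.0294, exact permutation). C1qa alone made up 169 of 302 FPKM in wild-type replicate 3 and 146 of 272 FPKM in knockout replicate 3. For Rbpjl r was -0.58 with the endothelial and -0.34 with the immune sum (adjusted p = 0.203 and 0.595, exact permutation). Without wild-type replicate 2 and knockout replicate 2, r of Ptf1a was -0.85 and -0.51. All 8 genes of each list had a lower log2 mean in knockouts (median -0.22 and -0.39), and 0 passed. Without knockout replicate 1 and heterozygote replicate 1 all 8 of each list were lower. Of the endothelial genes 7 and of the immune genes 4 then had an unadjusted limma p under 0.05 (19.8% of all genes), and 0 passed (0.0301%). The endocrine sum (14 genes, led by Ins2) had r = -0.58 with Ptf1a, and 12 of its 14 genes were lower in knockouts (median -0.31). Ins2 alone made up 2918 of 5854 FPKM in wild-type replicate 3 and 1191 of 3169 FPKM in knockout replicate 3. Without knockout replicate 1 and heterozygote replicate 1, 12 of 14 endocrine genes were lower (median -0.48). Of the 14, 12 then had an unadjusted limma p under 0.05 (19.8% of all genes) and 1 passed, beside 0.0301% of all genes. The duct and trunk sum (led by Spp1) had r = 0.19, with 4 of 7 tested genes higher. The erythroid (Hba-a1), neural (Tubb3), liver (Ttr) and stomach (Tff2) sums had r of -0.10, -0.32, -0.53 and 0.24 with Ptf1a, with 3 of 5, 4 of 7, 1 of 6 and 1 of 2 tested genes higher in knockouts and 0 passing. The liver sum was mostly Ttr, at 490 of 527 FPKM in wild-type replicate 3 and 260 of 302 FPKM in knockout replicate 3. Its r thus speaks of Ttr more than of liver. The neural sum was 163 FPKM in heterozygote replicate 1 and 135 in knockout replicate 1, against 54.4 to 94.7 in the others. Tubb3 alone made up 88.7 and 68.9 FPKM of the sum in these 2 libraries. Without them r of the neural sum with Ptf1a was -0.72, and 1 of 7 neural genes was higher in knockouts. Of 8 stomach and gut markers 6 were under 1 FPKM in every library, as were Cftr of the duct list and Gata1 of the erythroid list. Wild-type replicate 2, lowest at all 5 factors, had the highest Alb, Afp and Apoa1 of the 9 libraries. It was not the highest at Ttr, Fgb or Serpina1a. Its Alb was at 36.4 FPKM, against 1.68 to 5.04 in the others, and its Apoa1 at 7.43 against 1.07 to 1.48. Gkn1 and Gkn2 were at 0.708 and 0.924 FPKM there and at most 0.0454 FPKM elsewhere. The part of these tissues in the differences was not tested.

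The partners of PTF1A showed no common direction. Of the 4, 2 were higher and 2 lower in knockouts than in wild types, and 0 passed (median log2 difference -0.05). Without knockout replicate 1 and heterozygote replicate 1, 1 was higher and 3 were lower, and 0 passed. Tcf3, the E protein gene with the highest level, was at 61.2 ± 2.51 in wild types and 57.3 ± 6.30 in knockouts (-0.10), Tcf12 at 31.1 ± 1.63 and 31.2 ± 1.02 (0.00), and Tcf4 at 11.8 ± 1.53 and 10.8 ± 0.188 (-0.11). Rbpj was at 7.53 to 8.15 FPKM in wild types, 7.57 to 8.11 in heterozygotes, and 7.26, 12.6 and 6.95 in knockouts (0.12, SE 0.17). Its estimates in wild-type replicate 1 and knockout replicate 1 carry the status FAIL and kept their listed values. Rbpjl was thus at least 117 FPKM in libraries where Rbpj was at most 12.6. In heterozygotes all 4 partners had log2 differences below 0 from wild type, -0.13 at Tcf4 and -0.02 or closer to 0 at the others, and against heterozygotes 3 of 4 were higher in knockouts; 0 passed in either.

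Other transcription factor genes of pancreatic epithelium were mostly higher in knockouts, 15 of 18 tested, with 0 passing and a median log2 difference of 0.09. Without knockout replicate 1 and heterozygote replicate 1, 12 of 18 were higher (38.5% of all genes), with 0 passing and a median of 0.12. Foxa2, a forkhead factor of endoderm, was at 30.1 ± 1.61 and 34.5 ± 1.44 FPKM (0.19, SE 0.05, limma adjusted p = 0.58), and Xbp1, a regulator of secretory capacity, at 398 ± 39.5 and 455 ± 35.9 (0.19, limma adjusted p = 0.58). Gata6, the paralogue of Gata4, was lower in knockouts, at 27.2 ± 1.27 and 23.1 ± 2.33 (-0.23, SE 0.07, limma adjusted p = 0.58), and so was Creb3l1 (-0.10). Gata6 was also lower in heterozygotes, at 23.1 ± 0.975 (-0.22), as was Creb3l1 (-0.19), while Foxa2 (0.10) was higher. In that comparison 12 of 18 were higher and 0 passed. Knockouts against heterozygotes gave 13 of 18 higher, led by Hnf4a (0.17) and Foxa2 (0.09), with Gata6 (-0.01) lower, and 0 passed.

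Of the products of acinar cells, 19 of 27 tested were higher in knockouts than in wild types, with a median log2 difference of 0.17, beside 0.27 for the 5 factors, and 0 passed. Those with the smallest p were Pnlip, pancreatic lipase, at 0.904 ± 0.246 and 1.53 ± 0.542 FPKM (0.40), and Cela1, an elastase, at 1420 ± 95.6 and 2186 ± 874 (0.54). Gp2, a zymogen granule membrane protein, was at 1.65 ± 0.771 and 0.904 ± 0.521 (-0.47), and the elastase Cela2a at 1889 ± 348 and 1562 ± 242 (-0.27). In heterozygotes 17 of 27 were higher than in wild types (median 0.10), with Pnlip at 0.42, Cela1 at 0.46, Gp2 at -0.29 and Zg16 at -0.44 on the log2 scale. Against heterozygotes 18 of 27 were higher in knockouts (median 0.08), with Reg1 at 0.40, Amy1 at 0.29, Cela2a at -0.40 and Gp2 at -0.18, and 0 passed in either comparison. Without knockout replicate 1 and heterozygote replicate 1, the median in knockouts against wild types was 0.33. An unadjusted limma p under 0.05 was then found at 13 of 27 (19.8% of all genes), and at 5 of 27 against heterozygotes (6.48%). In knockouts against wild types 1 of 27 passed, and 1 of 27 in knockouts against heterozygotes, beside 0.0301% and 0.0376% of all genes. In both it was Pla2g1b, a secreted phospholipase, named after its values were seen (limma adjusted p = 0.000948 and 0.00381). It was at 5.54, 2.35 and 3.09 FPKM in wild types, 122, 8.29 and 5.66 FPKM in heterozygotes and 1.81, 162 and 130 FPKM in knockouts, so that both replicate 1 libraries left out lay far from the rest of their groups.

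Genes of the secretory pathway that BHLHA15 is known to activate had small differences. Of 5, 4 were higher in knockouts and 0 passed, with a median log2 difference of 0.05. Rab26, a small GTPase of secretory granules, was at 27.3 ± 2.80 and 30.5 ± 3.55 FPKM (0.15), Rab3d, another granule GTPase, at 81.0 ± 5.32 and 87.7 ± 8.52 (0.11), and Copz2, a coat protein of vesicles, at 94.0 ± 3.62 and 88.4 ± 3.77 (-0.09). In heterozygotes 2 of 5 were higher than in wild types, Rab26 by 0.23 and Rab3d by 0.02, with Copz2 at -0.11 and Atp2c2 at -0.06. Against heterozygotes 4 of 5 were higher in knockouts, led by Atp2c2 (0.11) and Rab3d (0.09), with Rab26 at -0.07, and 0 passed in either.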

How the data were processed

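The authors deposited 1 table per library with FPKM per gene and its confidence bounds, per the file headers, in the layout that Cufflinks writes. TopHat 2.0.4 placed the reads on mm9 with up to 4 mismatches and 10 hits, per the labels. The submitters' processing notes also name CASAVA 1.8.2, Cufflinks and DESeq. Neither the annotation nor the use of strand is given in the sources used here. Each table held 23699 loci under 23235 symbols, and repeated symbols were summed. Estimates that failed for excess data were treated as missing, which removed 4 symbols (Amy2a2, Amy2a5, Ctrb1 and Pnliprp1). Such failures were in mutant libraries only: 2 and 1 in heterozygote replicates 2 and 3, and 5 and 1 in knockout replicates 2 and 3. The counts and sums of acinar products therefore leave out abundant genes whose estimates failed in mutants. Rows marked FAIL kept their values. Fragment numbers were implied from the upper bound, taken as 2 standard errors above the value, and 73.8% to 74.7% of the low ones per library came out whole within 0.05. They cover counting error only.

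Tests used limma 3.58.1 in R 4.3.3, with a trend, on log2(FPKM + 1). All 9 libraries entered 1 fit with genotype as the only term, over 13306 genes that reached 1 FPKM in at least 3 libraries. Fold changes on this scale understate the change of low genes. A count test had been planned for counts, and the FPKM branch applied. Tests were two-sided, and an adjusted p (Benjamini-Hochberg, over all genes tested) under 0.05 was a pass. Correlations used exact permutation over all pairings of libraries (SciPy 1.17.1), and differences per Cpa1 an exact permutation over libraries. The labels give no pairing of libraries by replicate number, and the main fit used none. The limma script was tested on simulated data.

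The members and all gene lists were chosen with earlier results of these data known. Named are the 5 factors, Cpa1, the 4 partners, per list and comparison the 2 genes with the smallest p in each direction, the 3 genes most like each factor, and the gene with the highest level of each other cell type list. One gene that this rule names is not reported here. Ptf1a spans chromosome 2, 19367290 to 19369128, plus strand, on mm9. Nr5a2 spans chromosome 1, 138740161 to 138857025, minus strand, Bhlha15 chromosome 5, 144951155 to 144955310, plus strand, Gata4 chromosome 14, 63817752 to 63864097, minus strand, and Cpa1 chromosome 6, 30589221 to 30595361, plus strand. All are protein coding. Promoter windows are on another build, GRCm38.p6, and no position was converted.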

Additional observations from a re-analysis of the deposited data

How the results depend on the processing

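Under the 21 settings of each comparison (other pseudocount, filter, scalings, tests and covariates, and libraries left out), 0 factors passed by limma, with the lowest adjusted p, 0.0869, at Ptf1a without knockout replicate 1. Whether replicate numbers pair the libraries is not known. Deviations of same-numbered libraries correlated between -0.19 and 0.29, and those of other pairs from different genotypes between -0.34 and 0.28. With the replicate block, the log2 difference of Ptf1a between knockout and wild type was 0.42 (limma adjusted p = 0.57), 0 factors passed in any comparison, and 1 of 5 had an unadjusted p under 0.05 in place of 3 (8.14% of all genes in place of 8.39%). Many of the 315 log2 differences recomputed could not reverse, because their setting left the difference itself unchanged. Such settings were the fits without a trend, without the filter, with only the groups compared and with the replicate block. Leaving out a library of the group not compared also changed no difference. Of all 315, 311 kept their direction and 4 reversed. Bhlha15 in heterozygotes against wild type was -0.032 with Cpa1 as a covariate. Rbpjl in knockouts against heterozygotes was 0.0055 without heterozygote replicate 2, 0.18 without knockout replicate 1 (the values without 1 library ran from -0.36 to 0.18), and 0.15 without knockout replicate 1 and heterozygote replicate 1 together. The cause was not tested. Quantile normalization moved the share of all genes higher in knockouts from 41.5% to 53.9% and the median-of-ratios scaling to 49.9%, and all 5 factors stayed higher in both.

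Of 85 recomputed correlations with Cpa1, 17 passed the threshold after adjustment. For Ptf1a r was 0.794 on linear FPKM, 0.788 with median-of-ratios scaling, 0.724 after centring on genotype means and 0.787 against the summed acinar products. For Bhlha15 it was 0.82, 0.85, 0.843 and 0.889 in these settings, 0.807 when scaled without the acinar products, and 0.905 without knockout replicate 1 and heterozygote replicate 1. Leaving out 1 library at a time, r ranged from 0.543 to 0.819 at Ptf1a, 0.44 to 0.778 at Rbpjl, 0.468 to 0.825 at Nr5a2, 0.556 to 0.898 at Bhlha15 and 0.458 to 0.733 at Gata4. With 1 library left out, passes were at Ptf1a, Nr5a2, Bhlha15 and Gata4 without wild-type replicate 2, at Ptf1a and Bhlha15 without knockout replicate 1 and at Bhlha15 without heterozygote replicate 1 (lowest adjusted p 0.0161, exact permutation). The lowest r was without knockout replicate 2 for every factor but Rbpjl, where it was without knockout replicate 1. Quantile normalization gave no value here, because Cpa1 then has the same level in every library. Of 180 recomputed differences per Cpa1, those with the replicate block were not tested. None of the others passed, and with 2 or 3 libraries a group none could. Differences with the replicate block, or without a library of the group not compared, equalled the main values and could not turn sign. Of all 180, 20 turned sign. Without knockout replicate 1 and heterozygote replicate 1 they were -0.0040 at Nr5a2 and -0.066 at Bhlha15 in knockouts against wild types and 0.038 at Rbpjl in knockouts against heterozygotes. Against the summed acinar products Bhlha15 was at -0.054 in knockouts against wild types. Leaving out 1 library, knockouts against wild types ranged from -0.17 to 0.26 at Rbpjl, -0.039 to 0.18 at Nr5a2, -0.066 to 0.092 at Bhlha15 and -0.013 to 0.22 at Gata4. Heterozygotes against wild types ranged from -0.16 to 0.033 at Nr5a2 and -0.14 to 0.079 at Gata4, and knockouts against heterozygotes from -0.34 to 0.095 at Rbpjl. The deposited bounds lay 1.70% to 4.53% from the value at the factors, and the coefficient of variation over the 9 libraries was 8.86% to 25.1%. These bounds cover counting error only.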
